A study of Mus musculus with 3 samples.

Results

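Antigen presentation genes were described across the 7 clusters of cells from a study in which endothelium of the adult mouse heart was cultured with stromal cells of the embryonic aorta. The set comprised 10 of the 27,994 genes of the count table, picked by name with no threshold on their values. They were the class I heavy chains *H2-K1* and *H2-D1*, the class I light chain *B2m*, the peptide transporter *Tap1*, the class I transactivator *Nlrc5*, the class II chains *H2-Aa*, *H2-Ab1* and *H2-Eb1*, the invariant chain *Cd74* and the class II transactivator *Ciita*. All 10 were found in the table.

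Hearts of adult female mice that carry a broadly expressed GFP transgene were dissociated, and GFP+ CD31+ VE-Cad+ cells without CD41, CD45, PDGFRA or PDGFRB were sorted. They were aggregated with *Mesp1*-derived PSCs (PDGFRA+ stromal cells), which carry DsRed through *Mesp1*-cre recombination of a reporter and come from the E11.5 aorta-gonad-mesonephros region of embryos. Cultures on floating membranes contained fetal calf serum, IL-3, SCF and Flt3L. GFP+ CD31+ VE-Cad+ PDGFRA- cells were sorted again at 24, 48, 72 and 96 h and mixed with freshly sorted cells, which gave the pools A, B and C, and tissue of several animals was combined. Because no cell carries its time point, fresh and cultured cells could not be set against each other. The level of freshly isolated adult cells can therefore be read only through the clusters and their marker genes.

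Class I molecules display peptides from proteins made inside the cell. TAP carries those peptides into the endoplasmic reticulum, where tapasin and other chaperones load them on a heavy chain paired with β2-microglobulin, and immunoproteasome subunits change which peptides are cut. Most adult cells display class I, endothelium strongly so, whereas embryonic cells carry little of it. Class II molecules show peptides of ingested proteins and are typical of dendritic cells, B cells and activated macrophages, with a lower level in some capillary endothelium. CD74 guides class II chains to the compartment where they are loaded. Interferons raise both pathways, through IRF1 and the transactivators NLRC5 and CIITA. C57BL/6 mice lack a functional partner for the chain encoded by *H2-Eb1*, so that its transcript does not lead to a displayed molecule in that strain.

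Promoters were searched for the letters through which these regulators are known to act. For 6 of the 10 members a promoter, defined as 250 bases before to 50 bases after the start site, was taken from RefSeq (GRCm38.p6), and sites are printed from these 5′ to 3′ on the gene's strand with the searched letters in capitals. The class I heavy chains are shown first because each holds the core of an interferon-stimulated response element, searched as TTTCNNTTC on both strands and found in 7.52% of all 32,851 promoters, shortly before its start site.
H2-K1, chr17:34000419-34000447, minus strand: atctccacagTTTCACTTCtgcacctaac
H2-D1, chr17:35262934-35262962, plus strand: atctcctcagTTTCACTTCtgcacctaac
The first capital lies 104 bases before the start site in *H2-K1* (90 for a second listed start) and 150 before it in *H2-D1*, and 28 of the 29 printed positions are identical.

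The Y box, searched as CTGATTGG on both strands and present in 4.10% of promoters, was found in both heavy chains, in *Tap1*, in *H2-Aa* and in *H2-Eb1*, and these sites are shown because the class I and class II genes carry it in opposite orientation.
H2-K1, chr17:34000322-34000349, minus strand: tcaccaagaaCCAATCAGtgtcgccgcg
H2-D1, chr17:35263031-35263058, plus strand: attccaggagCCAATCAGcgtcgccgcg
Tap1, chr17:34187324-34187351, plus strand: gctcggctttCCAATCAGcggctgcgcg
H2-Aa, chr17:34287857-34287884, minus strand: agagaattttCTGATTGGttctggcgag
H2-Eb1, chr17:34305795-34305822, plus strand: tcctttgatgCTGATTGGctcccagcac
In *H2-K1* and *H2-D1* the Y box starts 98 and 97 bases after the response element, and 22 of 28 printed positions are identical between them, against 12 of 28 between *H2-Aa* and *H2-Eb1*. Its first letter thus lies at the start site in *H2-K1*, 6 bases before it or, for the second listed start, 8 after it. In *H2-D1* and *H2-Eb1* it lies 53 and 62 bases before the start site. The X box core CCNAGNNAC, present in 17.3% of promoters on either strand, was found in *Tap1* and in *H2-Aa*. In *Tap1* it begins 98 bases before the start site and thus downstream of the Y box, which begins 222 before it, and in *H2-Aa* it begins 180 before the start site, upstream of the Y box at 51. The gamma-activated site TTCNNNGAA, present in 8.30%, was found in none of the 6, and *B2m* held none of the 4 motifs within its window. A match of letters is a description and says nothing of use in these cells.

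The count table held 9,562 cells in clusters of 728, 799, 5,396, 239, 518, 1,572 and 310 cells (0 to 6), with median totals of 14,061, 7,875, 22,493, 23,684, 19,475.5, 36,065.5 and 32,186 unique molecular identifiers (UMIs, each 1 captured molecule). Barcodes ended in 1 of 3 library suffixes, of 3,507, 3,958 and 2,097 cells, which no label ties to a pool, and 13 of 9,549 distinct barcodes occurred under more than 1 suffix. The matrix was therefore treated as 1 sample, and no difference was tested. Levels are UMIs per 10,000 UMIs of a cluster, with the values for suffixes 1, 2 and 3, and intervals (95%) cover counting error only. Because the clustering used these very counts, differences between clusters are descriptions. The sum of 5 endothelial markers was 39.8, 44.8 and 28.0 in clusters 0, 1 and 2 and 3.41 to 5.25 in clusters 3 to 6. All 3 arterial markers were higher in cluster 0 than in cluster 2, and the sum of 10 adult heart endothelial markers was 87.4 in cluster 1 against 2.02 to 3.80 elsewhere. *Fabp4* gave 65.0 of the 87.4, while *Lpl* was higher in cluster 5 (1.78) than in cluster 1 (1.09) and *Tcf15* overlapped between clusters 1 and 2. Cluster 4 held the stromal markers, cluster 6 those of megakaryocytes, cluster 5 those of macrophages and granulocyte progenitors, and cluster 3 led in no list. UMIs of Y-linked genes occurred in 53.1 to 62.3% of the cells of each cluster, although the hearts were from female mice.

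Class I heavy chains set cluster 1 apart from all other clusters. *H2-K1* (GRCm38 chromosome 17, 33,996,017–34,000,347, minus strand; gene positions are from GENCODE M21) stood at 16.5, 15.0 and 17.1 UMIs per 10,000 under suffixes 1 to 3 in cluster 1, against 0.272, 0.273 and 0.144 in cluster 2, the largest cluster. The lowest of the cluster 1 values was more than 10 times the highest value of any other cluster. Pooled over suffixes, cluster 1 had 16.4, followed by clusters 5, 4, 0 and 6 with 0.957, 0.773, 0.456 and 0.368, and by clusters 2 and 3 with 0.227 each. Neighbours in this order overlapped between clusters 5 and 4, 0 and 6, and 2 and 3.

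*H2-D1* (chromosome 17, 35,262,730–35,267,499, plus strand), the other classical heavy chain of this strain, followed with 19.2, 18.5 and 21.1 UMIs per 10,000 in cluster 1 and 0.919, 0.916 and 0.812 in cluster 2. The other clusters ranked 0, 5, 4, 6 and 3, with 1.72, 1.61, 1.24, 0.981 and 0.279. Clusters 0, 5 and 4 overlapped in their suffix values, as did clusters 4 and 6, and cluster 3 was the lowest of all. The log2 ratio of cluster 1 to cluster 2 was 6.17 (95% interval 6.11 to 6.22) for *H2-K1* and 4.48 (4.45 to 4.51) for *H2-D1*. Reads of the heavy chains and of the H2-Q genes can be split between near-identical copies, and how such reads were counted is not given in the sources used here, so single heavy chain levels are uncertain.

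The composition of the heavy chain signal also differed. *H2-K1* gave 46.2, 44.9 and 44.8% of the summed *H2-K1* and *H2-D1* UMIs in cluster 1, and 22.9, 22.95 and 15.1% in cluster 2. The pooled share was 45.4% in cluster 1 (30,289 UMIs) and 44.9% in cluster 3 (361 UMIs), and clusters 4, 5, 6, 0 and 2 followed with 38.4, 37.3, 27.3, 20.99 and 20.5%. In the clusters with endothelial markers the share thus differed between cluster 1, where nearly equal amounts were counted, and clusters 0 and 2, where *H2-D1* made up most of the signal.

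*B2m* (chromosome 2, 122,147,686–122,153,083, plus strand), the shared light chain, gave 17.5, 16.1 and 15.5 UMIs per 10,000 in cluster 1. In cluster 5 it gave 3.86, 3.35 and 3.21, and in cluster 2 1.31, 1.29 and 1.05. Clusters 0, 4, 6 and 3 stood at 2.23, 2.09, 1.20 and 0.341. Among neighbours in this order, clusters 0 and 4 overlapped, as did clusters 2 and 6. The log2 ratio of cluster 1 to cluster 2 was 3.78 (3.74 to 3.81), smaller than for either heavy chain. Accordingly, 0.460 UMIs of *B2m* were counted per heavy chain UMI in cluster 1, whereas clusters 2 and 5 had 1.09 and 1.37.

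*Tap1* (chromosome 17, 34,187,553–34,197,225, plus strand), a subunit of the peptide transporter, was at 0.652, 0.776 and 0.920 UMIs per 10,000 in cluster 1. The next levels were 0.103, 0.0933 and 0.113 in cluster 5 and 0.0977, 0.0344 and 0.0717 in cluster 4. In the remaining clusters the pooled level was 0.00701 to 0.0186. The log2 ratio of cluster 1 to cluster 2 was 6.18 (5.92 to 6.45), close to that of *H2-K1*.

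*Nlrc5* (chromosome 8, 94,434,356–94,527,272, plus strand), which switches class I genes on, was near the detection limit. Cluster 1 held 47 UMIs in 43 cells, or 0.0488, 0.0592 and 0.0639 UMIs per 10,000, and the other clusters held 0 to 9 UMIs each. The log2 ratio to cluster 2, which held 6 UMIs, was 7.03 (5.80 to 8.55). All values of cluster 1 lay above those of the other clusters.

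**Figure D1:**
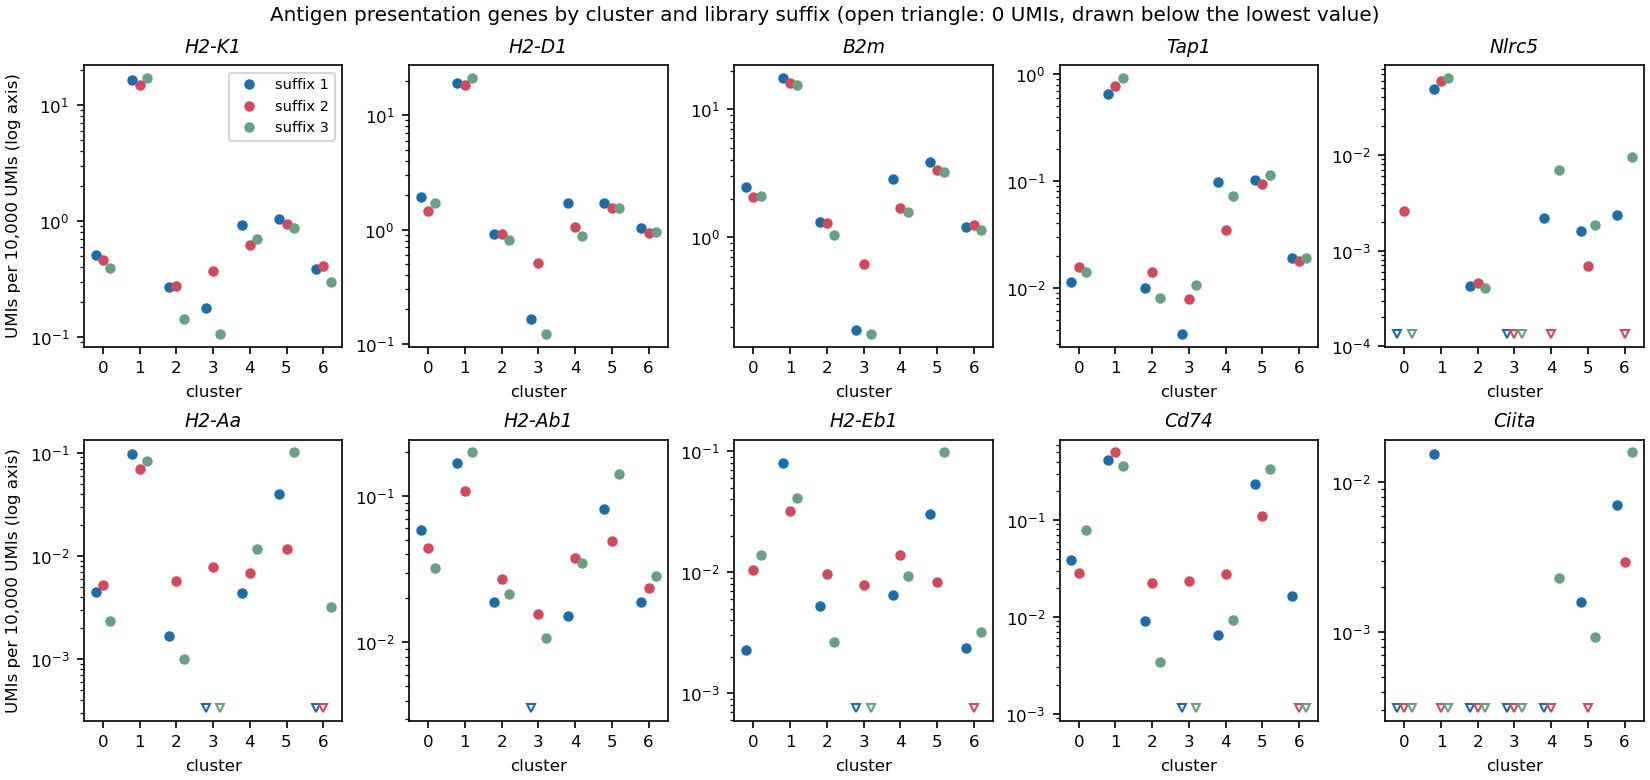
Levels of the 10 antigen presentation genes in clusters 0 to 6, in UMIs per 10,000 UMIs on a log axis, with 1 point for each library suffix and open triangles for 0 UMIs. For *H2-K1*, *H2-D1*, *B2m*, *Tap1* and *Nlrc5* every point of cluster 1 lies above every point of the other clusters, whereas *H2-Aa*, *H2-Ab1* and *H2-Eb1* overlap between clusters 1 and 5.

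Summed over both heavy chains, the class I level was 35.7, 33.5 and 38.2 UMIs per 10,000 in cluster 1, against 1.19, 1.19 and 0.957 in cluster 2. Clusters 5, 0, 4, 6 and 3 had 2.57, 2.17, 2.01, 1.35 and 0.506. Cluster 1 thus lay 32.5-fold above cluster 2, and 14.0-, 16.6-, 17.9-, 26.7- and 71.2-fold above clusters 5, 0, 4, 6 and 3. The suffix values of clusters 5, 0 and 4 overlapped, and the remaining neighbours did not.

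The difference was also seen in the share of cells with a UMI. After 5,000 UMIs had been drawn from each cell, which left out 90 shallower cells, *H2-K1* was found in 97.3% of 745 cells of cluster 1 (before thinning and with a threshold of 0.5 counts per 10,000, 98.9%). The same share was 35.8% in cluster 5 and 9.56% in cluster 2 (14.3% before thinning). The thinned share of *H2-D1* was 98.8% in cluster 1 and 32.6% in cluster 2. For *B2m* it was 97.9% and 45.8%, and for *Tap1* 26.2% and 0.577%. Free RNA can give UMIs in cells that do not express a gene, and its part in the shares of clusters 0 and 2 to 6 was not tested.

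Among single cells, the median class I level was 33.2 UMIs per 10,000 in cluster 1. The medians of clusters 5, 0, 6, 2, 3 and 4 were 2.25, 1.59, 1.15, 0.720, 0.207 and 0. The cells of cluster 1 spread from 9.67 at the 5th percentile to 171 in the highest cell. Cluster 4 was uneven, with 53.3% of cells at 0 and a 95th percentile of 11.8. Of the 8,763 cells outside cluster 1, 148 (1.69%) reached the 5th percentile of cluster 1. Over all clusters, cluster 1 included, 92 cells lay within 10% of that level. The 148 were 62 cells of cluster 2, 33 of cluster 5, 31 of cluster 4, 16 of cluster 0 and 3 each of clusters 3 and 6. These were 5.98% of cluster 4 and 0.968 to 2.20% of the others.

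Cells with a high class I level outside cluster 1 also carried more of the adult heart endothelial list. The list summed to 24.7 UMIs per 10,000 in the high cells of cluster 2 and to 3.23 in the rest, while the fetal list (9 genes, among them *H19*, *Igf2* and *Mest*) stood at 44.7 and 49.7. In cluster 4 the adult list was at 17.2 and 3.06, and the fetal list at 15.0 and 48.5. There the stromal list was at 31.9 in the high cells and 16.5 in the rest. The fetal list was higher in the high cells of clusters 0 (97.3 against 94.2) and 3 (10.6 against 8.24). It was lower in those of clusters 5 (6.74 against 10.8) and 6 (4.44 against 6.79). In cluster 5 the adult list was at 15.9 and 2.97, with the macrophage list at 15.6 and 15.4. The endothelial list was higher in the high cells as well, at 9.78 against 3.06 in cluster 4 and 8.16 against 4.16 in cluster 5. High cells were mostly shallower, with median totals of 8,920 against 36,522 UMIs in cluster 5 and 6,617 against 24,474 in cluster 3. The gap was smaller in cluster 4, at 16,122 against 19,683, and nearly absent in cluster 0, at 13,995.5 against 14,061. The part of doublets and free RNA in these values was not tested.

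**Figure D2:**
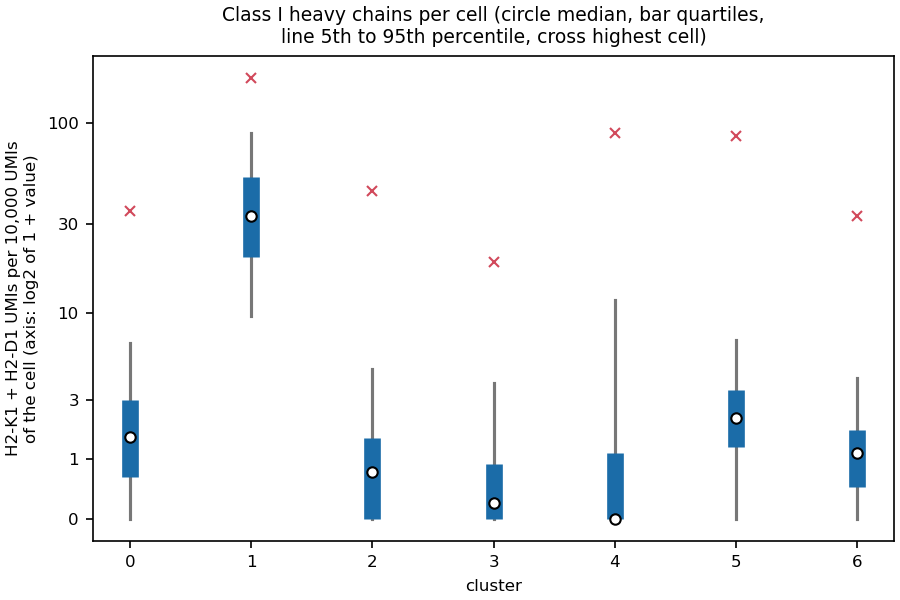
Summed *H2-K1* and *H2-D1* UMIs per 10,000 UMIs of each cell (axis: log2 of 1 plus the value) in clusters 0 to 6, with the median as a circle, quartiles as a bar, the 5th to 95th percentile as a line and the highest cell as a cross. The 5th percentile of cluster 1 (9.67) lies above the 95th percentile of the other clusters except cluster 4 (11.8).

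Against cluster 2, a gene was called when it differed at least 2-fold over all cells and in the same direction under each suffix, among genes with at least 0.1 UMIs per 10,000 in the higher cluster. In cluster 1, 6 of the 10 members passed that level and all 6 were called higher (*H2-K1*, *H2-D1*, *B2m*, *Tap1*, *H2-Ab1* and *Cd74*), where 20.0% of 9,191 genes were called higher and 10.4% lower. *Tap1*, *H2-Ab1* and *Cd74* reached that level through cluster 1 alone and stood so low in cluster 2 that passing it fixed a 2-fold difference. The 3 members at the level in cluster 2 (*H2-K1*, *H2-D1* and *B2m*) were all called higher, where 10.6% of the 7,895 genes at that level were called higher and 12.1% lower. In cluster 5, 4 of 5 were called higher (*H2-K1*, *B2m*, *Tap1* and *Cd74*), where 10.4% of 8,734 genes were called higher and 15.1% lower. Again *Tap1* and *Cd74* passed through cluster 5 alone, which fixed a 2-fold difference, and *Cd74* fell under the level without the 6 cells richest in class II UMIs. Of the 3 members at the level in cluster 2, *H2-K1* and *B2m* were called higher, where 3.67% of genes at that level were called higher and 16.8% lower. The exception was *H2-D1*, at a log2 ratio of 0.87 (0.83 to 0.91). The remaining members in each comparison were below the level that a call required.

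In clusters 0, 3, 4 and 6, 3 members (*H2-K1*, *H2-D1* and *B2m*) passed the level, all of them in cluster 2 as well, so that shares are also given over the 7,895 genes at the level there. In cluster 0 *H2-K1* was called higher at a log2 ratio of 1.004 (0.87 to 1.13), where 9.15% of genes were called higher and 2.77% lower (4.99 and 3.04% of those at the level in cluster 2), and it lay at the edge of the rule, with no member called when suffix 3 was left out and 2 when suffix 2 was. *H2-D1* and *B2m* were just below it, at 0.96 and 0.88. As a mean over cells and at 5,000 UMIs per cell *H2-K1* stood at 0.75 and 0.68 in cluster 0, under the 2-fold limit. In cluster 4 *H2-K1* was called higher at 1.76 (1.66 to 1.87), against 13.8% of genes higher and 6.60% lower (4.41 and 7.71% of those at the level in cluster 2). In cluster 6 no member was called, against 10.9% of genes higher and 17.2% lower (5.37 and 18.7%). Cluster 3 went the other way. *H2-D1* and *B2m* were called lower at -1.66 (-1.87 to -1.46) and -1.83 (-2.02 to -1.65), where 22.3% of 8,779 genes were called lower and 12.9% higher (24.9 and 6.03%), while *H2-K1* stood at nearly the level of cluster 2 (-0.24 to 0.23). Suffix 2 was nearest to cluster 2, and the summed class I log2 ratio of cluster 3 was -1.13 with it and -1.85 without it. As a mean over cells, in which shallow cells weigh as much as deep ones, it was -0.49, with *H2-D1* at -0.96 and *B2m* at -0.98, inside the 2-fold limit, and *H2-K1* at 0.44. At 5,000 UMIs per cell the values were -0.44, -0.90, -1.13 and 0.50, so the size of the difference and the calls in cluster 3 depend on this choice.

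Some other genes of the class I pathway were also higher in cluster 1. Of 21 genes on the list, 7 were at the level in cluster 2. At that level 10.6% of all 7,895 genes were called higher in cluster 1 and 12.1% lower. Of the 7 listed genes, 3 were called higher and none lower. They were the immunoproteasome subunit *Psmb10* (2.05) and the proteasome activators *Psme1* (1.38) and *Psme2* (1.72). A further 12 reached the level through cluster 1 alone and were called higher, and the level fixed a 2-fold difference for 10 of them, so that their number is a description only. The 5 largest ratios were those of the heavy chain-like genes *H2-Q6* (7.03), *H2-Q7* (6.32) and *H2-Q4* (5.82) and of the immunoproteasome subunits *Psmb8* (6.25) and *Psmb9* (5.77). The transporter subunit *Tap2*, at 5.55, and the loading chaperone tapasin (*Tapbp*), at 4.76, were also called higher. The 4 genes at the level in cluster 2 that were not called were general chaperones of the endoplasmic reticulum, namely *Calr* (-0.45), *Canx* (-0.32) and *Pdia3* (-0.46), and the lipid-presenting *Cd1d1* (-0.33).

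The upstream genes were called in part. Of 15 regulators, 10 were at the level in cluster 2, and 5 of these were called higher in cluster 1 and none lower. Of all 7,895 genes at that level, 10.6% were called higher there and 12.1% lower. The 5 regulators included the signalling kinase *Jak2* (2.41) and the interferon-γ receptor chain *Ifngr1* (1.68). The interferon-regulated factors *Irf8* (4.86) and *Irf1* (4.46) passed the level through cluster 1 alone, which fixed a 2-fold difference. The widely expressed factors that bind X and Y boxes, *Rfxap*, *Creb1*, *Nfya*, *Nfyb* and *Nfyc*, were not called. None of the 12 interferon-induced genes reached the level in cluster 2, so that passing it in cluster 1, as all 12 did, fixed a 2-fold difference. Log2 ratios are given as a description for the chemokines *Cxcl10* (9.38) and *Cxcl9* (7.38) and the antiviral genes *Ifit1* (7.13), *Ifit3* (6.97) and *Isg15* (6.88).

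In cluster 5, of the 7 class I pathway genes at the level in cluster 2, 3 were called higher and none lower, again *Psmb10*, *Psme1* and *Psme2*, where 3.67% of all genes at that level were called higher. A further 7 passed through cluster 5 alone, which fixed a 2-fold difference for 5 of them. Log2 ratios were 2.68 for *Psmb10* and, among genes that passed through cluster 5 alone, 4.55 for *Psmb8*, 4.41 for *Psmb9*, 2.42 for *Tap2* and 2.16 for *Tapbp*. Of 10 regulators at the level in cluster 2, *Ifngr1* (1.49) was called, and *Irf8* (5.46) and *Irf1* (1.78) passed through cluster 5 alone, which fixed a 2-fold difference. For the heavy chains the summed log2 ratio was 1.21 (1.18 to 1.24), with *H2-K1* at 2.07 and *H2-D1* at 0.87.

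Of the 7 class I pathway genes at the level in cluster 2, 0 were called in clusters 0 and 4. At that level, 4.99% of all genes were called higher and 3.04% lower in cluster 0, and 4.41 and 7.71% in cluster 4. The 3 genes called in cluster 0, *H2-Q4* (2.20), *Tapbp* (1.87) and the peptide-trimming enzyme *Erap1* (1.53), and the 3 called in cluster 4, *Psmb8* (1.83), *H2-Q7* (1.78) and *Tapbp* (1.43), passed through those clusters alone, which fixed a 2-fold difference for 2 of the 3 in each. Cluster 6 had 1 of 7 higher, *Psmb10* (1.57), where 5.37% of all genes at that level were called higher. Cluster 3 had 2 of 7 higher, the proteasome activators *Psme1* (1.84) and *Psme2* (1.61), and 2 lower, *Cd1d1* (-1.76) and *Pdia3* (-1.47), where 6.03% of genes at that level were called higher and 24.9% lower. *Tapbp*, at 1.64 in cluster 6 and 2.11 in cluster 3, passed through those clusters alone. Its level was 0.0675 UMIs per 10,000 in cluster 2, under the level of a call, and 0.182 to 1.83 in the other 6 clusters. Among regulators in cluster 3, *Jak1* (-2.06), *Ifngr1* (-2.01) and *Ifngr2* (-1.64) were called lower, and *Irf1* (3.41) passed through cluster 3 alone. Of the interferon-induced genes, 2 reached the level in each of clusters 0, 4 and 5, 3 in cluster 6 and none in cluster 3.

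**Figure D3:**
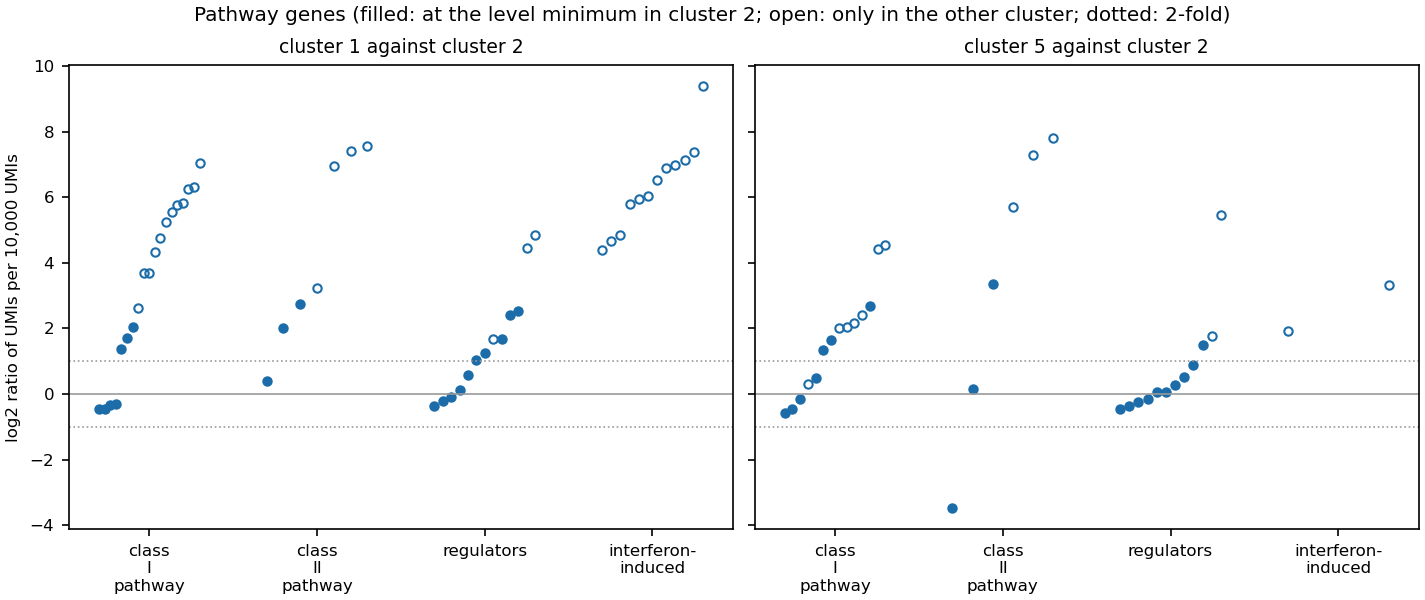
Log2 ratios of UMIs per 10,000 UMIs of cluster 1 (left) and cluster 5 (right) to cluster 2 for the genes of the class I pathway, class II pathway, regulator and interferon-induced lists, with 1 point for each gene at 0.1 UMIs per 10,000 or more in the higher cluster, filled where cluster 2 reaches that level and open where only the other cluster does, and the 2-fold limits dotted. None of the interferon-induced genes is filled, and of the 7 filled class I pathway genes 3 lie above the 2-fold limit in either cluster. Of all genes at that level in cluster 2, 10.6 and 3.67% were called higher in clusters 1 and 5.

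Between the lowest and highest 25% of cells by each list, the class I level of cluster 1 varied with fetal genes and hardly with adult ones. In the 25% of cells with the lowest fetal list, class I stood at 47.6, 49.0 and 50.5 UMIs per 10,000 under suffixes 1 to 3, and in the 25% with the highest at 24.1, 24.0 and 26.7. Between the lowest and highest 25% by the adult list it was 36.3 and 37.6, with the direction mixed over suffixes. Split by class I instead, the adult list stood at 91.4 in the 759 cells at or above the 5th percentile and at 37.0 in the rest. The fetal list was at 9.23 and 21.5. The 45 cells with 10 or more UMIs of macrophage genes and *Ptprc* had a low adult list (15.7) and high class I (46.4). Their part in the 25% groups was not tested. Median totals were 7,484 and 8,602 UMIs in the cells with the lowest and the highest fetal list. Class I was thus lower where fetal genes were high, but even there it was above that of every other cluster.

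Outside cluster 1 the adult list went with class I in each cluster and suffix. In cluster 2 class I was 0.672, 0.701 and 0.693 in the lowest 25% by the adult list and 2.85, 2.51 and 1.95 in the highest. Clusters 0, 3, 4, 5 and 6 had 1.52, 0.218, 1.17, 2.10 and 1.02 in the lowest and 3.27, 2.30, 3.64, 3.41 and 3.03 in the highest 25%. None of the highest 25% came near the level of cluster 1. Median totals were lower in the highest than in the lowest 25% of these clusters, for example 16,149 against 25,669 UMIs in cluster 2, 8,903 against 31,310 in cluster 3 and 8,783 against 30,096 in cluster 6, except in cluster 4 with 20,109 against 16,728. The part of depth was not tested.

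By the fetal list the clusters differed in direction. Class I was 6.51, 6.28 and 4.27 in the lowest 25% of cluster 4 and 0.614, 0.586 and 0.475 in the highest. In cluster 5 it was 3.38, 4.06 and 3.18 in the lowest 25% and 1.67, 1.95 and 1.81 in the highest. In cluster 0 it was 2.08, 1.44 and 1.89 in the lowest and 2.96, 2.08 and 2.35 in the highest 25%. Clusters 2, 3 and 6 had no common direction over suffixes, with 1.20, 0.305 and 0.994 in the lowest and 1.14, 1.01 and 1.75 in the highest 25%, and in cluster 3 suffix 2 alone was higher in the latter. Depth differed here too. Median totals were 38,762 UMIs in the lowest and 16,582 in the highest 25% of cluster 5, 16,889.5 and 11,817.5 in cluster 0, and 14,642 and 18,685 in cluster 4, and the part of depth was not tested.

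The split by sex-linked RNA also touched class I in cluster 1. Of all cells, 4,336 held UMIs of 4 Y-linked genes and none of *Xist*, 3,296 held *Xist* and no Y-linked UMI, 946 held both and 984 neither. In cluster 1, class I was 48.9, 40.5 and 47.9 UMIs per 10,000 in 175 cells with *Xist* only and 34.0, 29.6 and 36.8 in 443 cells with Y-linked UMIs only. The log2 ratio of the latter to the former was -0.46 (-0.50 to -0.41), lower under each suffix, with median totals of 6,264 and 9,118 UMIs. Both sets of cells stood far above the other clusters. In cluster 2 the same log2 ratio was -0.03 (-0.08 to 0.03), and it differed in direction between suffixes in every cluster except clusters 1 and 3. In cluster 3 it was -1.43, and -0.36 without suffix 2. Whether cells came from the heart or from the embryo was not tested.

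**Figure D4:**
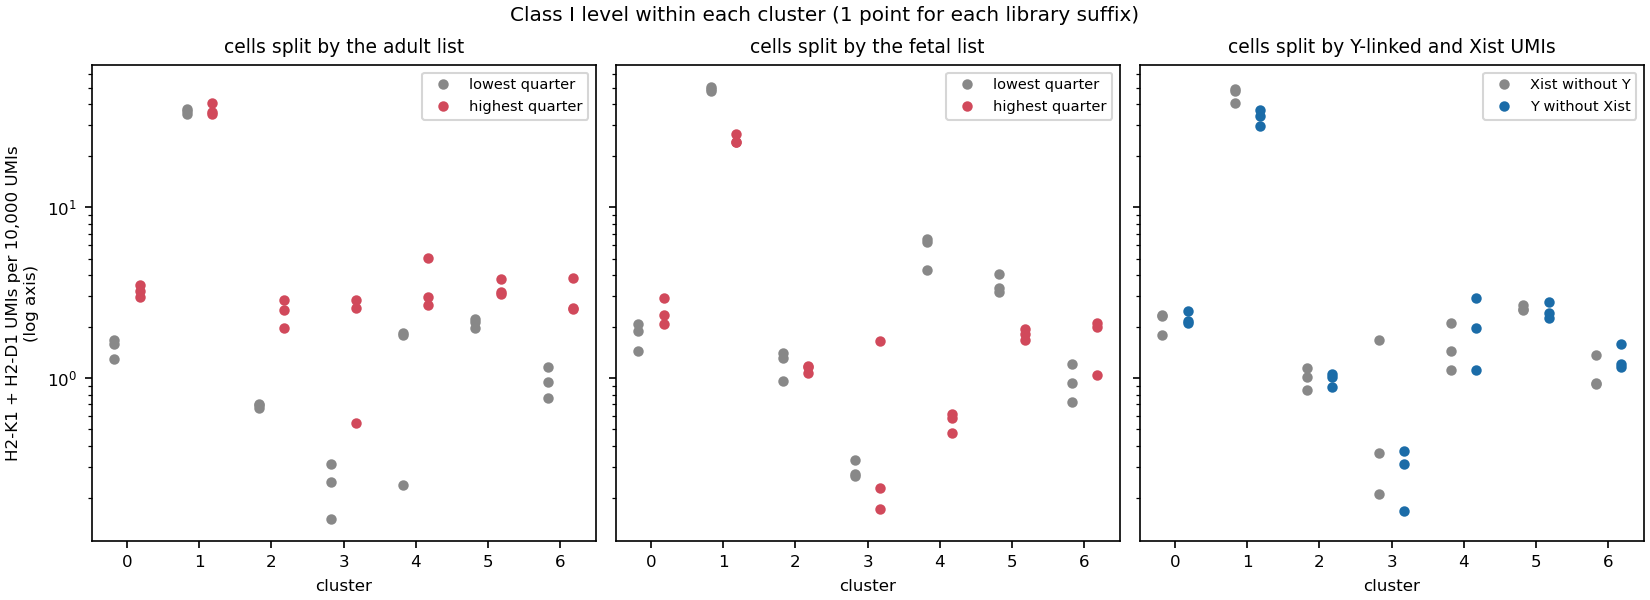
Summed *H2-K1* and *H2-D1* UMIs per 10,000 UMIs (log axis) within clusters 0 to 6 for cells split by the adult list and by the fetal list (lowest and highest 25% of cells) and by Y-linked and *Xist* UMIs, with 1 point for each library suffix. By the fetal list cluster 1 falls from 48.7 to 24.9 between the lowest and the highest 25% of cells, and by the adult list it stays at 36.3 and 37.6.

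Macrophage markers were present in cluster 1 as well. The 7 macrophage genes summed to 4.74 UMIs per 10,000 there (1.47 to 6.32 over suffixes) against 15.4 in cluster 5 and 0.100 in cluster 2, and *Ptprc* (CD45) to 0.200 against 1.08 and 0.00591. In the 582 cells of cluster 1 with no UMI of any of these 8 genes, class I was 34.1 (29.8 to 36.2), with the adult list at 102 and the endothelial list at 49.6. In 172 cells with 1 to 9 such UMIs it was 36.4. In 45 cells with 10 or more it was 46.4, with the endothelial list at 11.7. The class I level of cluster 1 was therefore of the same size without cells that held these genes.

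Class II transcripts were sparse everywhere and, over all cells, highest in cluster 1 and cluster 5. *H2-Aa* (chromosome 17, 34,282,744–34,287,823, minus strand) was at 0.0976, 0.0700 and 0.0826 UMIs per 10,000 in cluster 1 and at 0.0398, 0.0117 and 0.101 in cluster 5. *H2-Ab1* (chromosome 17, 34,257,689–34,269,419, plus strand) was at 0.167, 0.108 and 0.199 in cluster 1 and at 0.0815, 0.0491 and 0.142 in cluster 5. *H2-Eb1* (chromosome 17, 34,305,867–34,316,674, plus strand) was at 0.0796, 0.0323 and 0.0413 in cluster 1 and at 0.0306, 0.00829 and 0.0983 in cluster 5. For each of the 3 chains the values of both clusters overlapped, and in cluster 5 suffix 3 was the highest each time.

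Summed, class II was 0.344, 0.210 and 0.323 UMIs per 10,000 in cluster 1 and 0.152, 0.0691 and 0.341 in cluster 5. The pooled levels of clusters 0, 4, 2, 6 and 3 were 0.0580, 0.0448, 0.0306, 0.0260 and 0.0140. Cluster 1 exceeded cluster 2 10.1-fold and cluster 5 1.55-fold, and the latter difference lay within the spread of the suffixes. The order of clusters 1 and 5 also depended on the averaging. As a mean over cells their log2 ratios to cluster 2 were 3.13 and 3.67, and at 5,000 UMIs per cell 3.03 and 3.58, so that cluster 5 stood above cluster 1 in both. The log2 ratio of cluster 5 to cluster 2 was 2.70 (2.54 to 2.86) and, without suffix 3, 1.85.

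The class II signal of cluster 5 rested on few cells. Of its 1,213 class II UMIs, 76.8% were in the 16 cells with the most, and 6 cells held 10 or more, with 365, 247, 168, 71, 26 and 18. Without these 6 cells, which were set aside after the data had been seen, cluster 5 fell to 0.0522 (0.0498 to 0.0555 over suffixes), a log2 ratio to cluster 2 of 0.77 in place of 2.70. It then stood below the pooled level of cluster 0 (0.0580), with overlapping suffix values. The cell with 365 class II UMIs held 4 UMIs of *Xcr1* and 2 of *Flt3*, genes of dendritic cells. It held none of *Zbtb46* and *Itgax*, which had been listed as markers of the same cell type. Those with 247 and 168 held 60 and 19 UMIs of the macrophage gene *C1qa*, but the former also held 13 UMIs of the adult heart endothelial marker *Fabp4* and the latter 20 of the endothelial gene *Cdh5*. Those with 71 and 18 held 32 and 19 UMIs of *Cd79a* and 11 and 13 of *Ms4a1*, genes of B cells.

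In cluster 1 the same signal was spread more widely. Its 259 class II UMIs lay in 114 cells, 32.4% of them in the 8 cells with the most, and the highest cell held 18. Without the 4 cells with 10 or more, the level was 0.238 UMIs per 10,000. These 4 cells had suffix 1. None of them held a UMI of *Cd79a*, *Ms4a1*, *Flt3* or *Xcr1*, and all 4 held *Fabp4*, with 14 to 26 UMIs. Of these, 3 held 2 to 8 UMIs of *Cdh5* and none of *C1qa*, whereas the fourth held none of *Cdh5* but 9 UMIs of *C1qa*, 7 of *Ptprc* and 3 of *Csf1r*, all leukocyte genes. In the cells of cluster 1 without leukocyte genes class II was 0.319.

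At an equal depth of 5,000 UMIs, 25 of 745 cells of cluster 1 held at least 2 class II UMIs (3.36%, exact interval 2.18 to 4.91%), against 9 of 1,568 in cluster 5 (0.574%, 0.263 to 1.09%) and 0.223% in cluster 2. Clusters 4, 3 and 0 had 0.781, 0.418 and 0.277%. None of 309 cells of cluster 6 did, which allows a share of up to 0.971% (3 counts), with an exact upper bound of 1.19%.

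**Figure D5:**
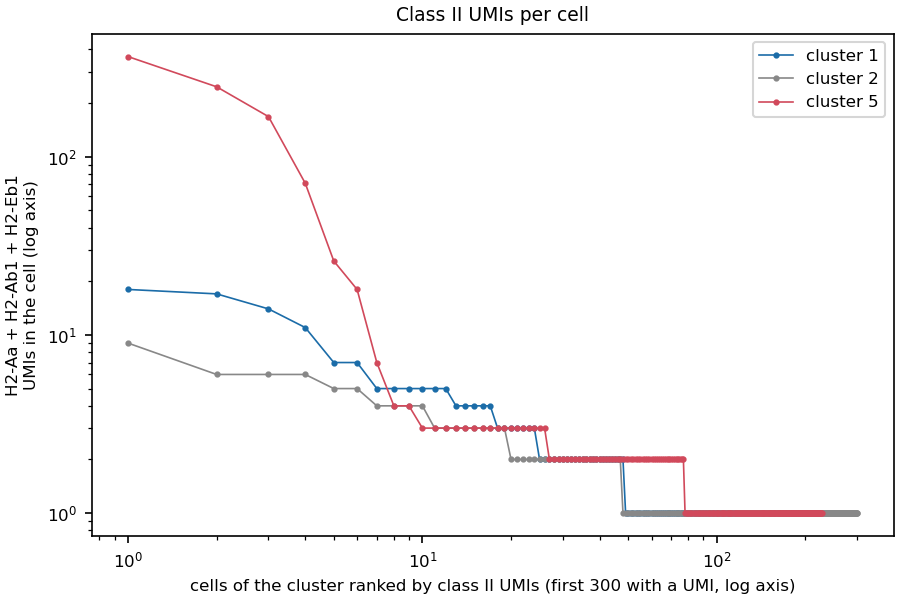
Summed *H2-Aa*, *H2-Ab1* and *H2-Eb1* UMIs in single cells, ranked within each cluster (both axes logarithmic, the first 300 cells with a UMI). The curve of cluster 5 starts at 365 UMIs and drops steeply within its first cells, whereas that of cluster 1 starts at 18.

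*Cd74*, the invariant chain, was counted at 0.416, 0.501 and 0.361 UMIs per 10,000 in cluster 1 and at 0.234, 0.109 and 0.333 in cluster 5. Cluster 0 had 0.0493, and the other clusters 0.00650 to 0.0127. The log2 ratio to cluster 2 was 5.22 (4.95 to 5.50) in cluster 1 and 4.42 (4.18 to 4.67) in cluster 5. All values of cluster 1 lay above those of cluster 5, and without the cells with 10 or more class II UMIs the levels were 0.333 and 0.0899, the latter under the level that a call requires.

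*Ciita* (chromosome 16, 10,480,059–10,528,418, plus strand), which switches class II genes on, was at the limit of detection. Cluster 1 held 6 UMIs in 3 cells, cluster 5 held 6 in 4 cells, cluster 6 held 9 in 8 cells and cluster 4 held 1, and none was found in clusters 0, 2 and 3. At 5,000 UMIs per cell, a count of 0 over the 5,377 cells of cluster 2 allows a share of cells with a UMI of up to 0.0558% (3 counts), with an exact upper bound of 0.0686%. Of the 6 UMIs of cluster 1, 4 were in a single cell with 17 class II UMIs. Cluster 6, with the most *Ciita* UMIs, was among the lowest in class II.

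Few genes of the class II pathway other than the members reached the level of a call. Of 15 on the list 14 were in the table, and 3 were at the level in cluster 2. Of these, the proteases *Lgmn* (2.75) and *Ctsl* (2.01) were called higher in cluster 1 and none lower. Of all genes at that level, 10.6% were called higher there and 12.1% lower. The lysosomal protease *Ctss* (7.56), the checkpoint ligand *Cd274* (7.41), the co-stimulator *Cd86* (6.96) and the reductase *Ifi30* (3.23) passed through cluster 1 alone, which fixed a 2-fold difference. Macrophage genes moved with some of these. *Ctss* ranged from 0.458 to 2.28 UMIs per 10,000 over suffixes, the macrophage gene *C1qa* from 0.312 to 2.08, and in the 582 cells of cluster 1 without leukocyte genes *Ctss* stood at 0.0162 in place of 1.69 and *Cd86* at 0.00360 in place of 0.185. There *Cd274* kept 0.351 of 0.654, *Ifi30* 0.140 of 0.290 and *Lgmn* 1.32 of 1.88. In cluster 5, *Lgmn* (3.35) was called higher and *Cd40* lower (-3.48). Of all genes at the level in cluster 2, 3.67% were called higher there and 16.8% lower. *Cd86* (7.80), *Ctss* (7.28) and *Ifi30* (5.70) passed through cluster 5 alone. *Cd40* was also called lower in clusters 3 (-3.35), 4 (-2.82) and 6 (-3.20) and higher in cluster 0 (1.12). In clusters 3 and 4, 24.9 and 7.71% of all genes at that level were called lower. In cluster 6 all 3 genes at the level in cluster 2 were called lower, where 18.7% of all such genes were. In cluster 0 the protease *Ctsl* (1.57) was called higher too, where 4.99% of all such genes were.

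Among the genes most like the class I sum across the 21 combinations of cluster and suffix, by Pearson correlation of log2(level + 0.1) among 3,058 genes, were *Junb* (0.99), *H2-T22* (0.97), *Socs3* (0.96) and *Plin2* (0.96). For the class II sum they were *Slfn2* (0.92), *Psmb8* (0.91), *Ccl4* (0.91), *Il4ra* (0.91) and *Klf6* (0.90). The points share libraries and clusters and are no replicates, so that these values are a description. *Junb*, an immediate early transcription factor, stood at 8.50 UMIs per 10,000 in cluster 1 and 0.237 to 1.22 elsewhere. *B2m* had a correlation of 0.97 with the class I sum, *Tap1* 0.94 and *Nlrc5* 0.90, and *Cd74* one of 0.95 with the class II sum against 0.19 for *Ciita*.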

How the data were processed

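Cells were captured with 10x Genomics v3 chemistry. The authors processed reads on mm10 (GRCm38) with Cell Ranger 3.1.0 and, per the labels, Seurat 3.1.5, joined libraries with batch-effect removal and kept singlets of at least 5,000 UMIs, although 90 of the cells used here are below that. The authors deposited UMI counts per gene and cell without normalization, a natural log table of 1 plus counts per 10,000, used here as an alternative only, and their cluster number for each cell. Which annotation the authors counted with is not given in the sources used here. Genes were named from GENCODE M21 (27,645 named, 353 not), and *Marchf1* was not found under that symbol. Some genes that the rule below names are not reported here. Members, lists and rules were chosen with earlier results of these data known.

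UMIs were summed over the cells of a cluster and suffix and divided by the summed total. Levels carry exact Poisson intervals, shares exact Clopper-Pearson intervals and ratios exact conditional binomial intervals (95%), and 3 UMIs served as the limit for a count of 0. No count test was run, because no cell could be traced to a pool. Single cells were thinned without replacement (random seed 1). Cells were ranked by a list within their cluster, ties broken at random, and the lowest and highest 25% compared. Lists were those of the class I and class II pathways, regulators and interferon-induced genes, and markers of adult heart endothelial, fetal, endothelial, arterial, stromal, macrophage, granulocyte progenitor and megakaryocyte type. The genes named are the members, the called genes among the 5 largest ratios of a pathway list in a comparison, the 5 most like each sum, and genes a result turned on. Scrublet (random seed 0) called 8 of 9,562 cells (0.0837%), too few for a working call, and all were kept. The call rule was run on simulated counts of cluster 1 against cluster 2, where it recovered 100% of 97 genes changed 2.5-fold and of 103 changed 4-fold among 7,987. These counts carried counting error only, with no spread between suffixes or cells. The changed genes were not scarce ones and their folds lay beyond the limit of the rule. Full recovery was thus close to given and says nothing of the spread in the real data. The share of false calls is not given here. Alternatives left out each suffix, and changed the level minimum, the cluster it applied to, the fold, the depth, the averaging, the values used and the positivity threshold. Software was scanpy 1.11.5, scipy 1.17.1, pandas 2.3.3, numpy 2.4.6 and matplotlib 3.10.9 under Python 3.11.15.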

Additional observations from a re-analysis of the deposited data

Results flagged for a closer look

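Within clusters, class I moved in opposite directions with the fetal list. The log2 ratio of class I between the highest and the lowest 25% of cells by that list was -0.97 in cluster 1, -3.39 in cluster 4 and -0.89 in cluster 5, lower under each library suffix, and 0.32 in cluster 0, higher under each, while clusters 2, 3 and 6 were mixed over suffixes. The difference between clusters was not tested, since the suffixes are no labelled replicates.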

How the results depend on the processing

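No ratio changed direction where it had been called. Of the values that answer a comparison, 108 stayed within 1 SD of the 3 suffix values (for counts of members, within 1.5 times) under other settings and 35 did not, and 106 did and 8 did not when 1 suffix was left out. The mean over cells and the deposited normalized values give the same numbers, so a single calculation is counted under both settings. Removal of the 8 Scrublet cells is counted as a setting too. Values without 1 suffix share the other suffixes with the main value, so these counts are a description and no test of stability. Each suffix held cells of every cluster, but no paired test over suffixes was run, because no label ties a suffix to a pool. The class I log2 ratio of cluster 1 to cluster 2 was 4.88 to 5.10 when leaving out a suffix and 4.94 without the cells holding leukocyte genes, a setting added after seeing the data, as was the omission of cells with 10 or more class II UMIs, which moved cluster 5 to 0.77 in class II. Also added then was a level minimum in cluster 2 itself. Under it 3 members were called higher in cluster 1 and 2 in cluster 5, against 10.6 and 3.67% of genes. Because the suffixes spread widely there, larger moves also stayed within that SD, such as the class I log2 ratio of cluster 3 from -1.13 to -0.49 and -0.44 and the class II log2 ratio of cluster 5 from 2.70 to 3.67 and 3.58, as a mean of cells and at 5,000 UMIs. The class II log2 ratio of cluster 3 was -0.22 as a mean of cells, which the deposited normalized values repeat by construction, and -2.54 to -0.55 when leaving out a suffix. With a minimum level of 1 UMI per 10,000, members called higher numbered 0, 3, 0 and 1 in clusters 0, 1, 4 and 5, where 8.13, 20.1, 6.51 and 7.96% of all genes were called higher, and 1 was called lower in cluster 3, where 20.9% of genes were. At 1.5-fold, 3, 2 and 1 were called higher in clusters 0, 4 and 6, against 18.9, 23.1 and 17.1% of genes. At 4-fold, 0 were called higher in clusters 0 and 4, against 3.37 and 8.02% of genes, and 0 lower in cluster 3, against 9.78%. Without a suffix, 0 to 2 were called higher in cluster 0: 0 without suffix 3 and 2 without suffix 2. The class I log2 ratio of Y-linked to *Xist* cells in cluster 1 was -0.56 when 2 Y-linked UMIs were required. The share of class II positive cells in clusters 0 to 6 was 2.77, 8.59, 1.69, 0.837, 2.54, 2.30 and 1.29% with 1 UMI sufficing, and 3.98, 9.26, 1.56, 1.26, 1.93, 2.23 and 0.645% for *H2-Ab1* above 0.5 counts per 10,000 without thinning. With 3 UMIs required it was 2.15% in cluster 1, 0.446% in cluster 5 and 0% in clusters 3 and 6. Leaving out a suffix gave 0 to 0.588% in cluster 3 and 0% in cluster 6. For these the cause was not tested.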
